A study of Homo sapiens with 8 samples.

Results

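C/D box small nucleolar RNAs (snoRNAs), apart from those of the imprinted Prader-Willi locus, were followed on expression arrays of the human embryonic carcinoma line NCCIT after depletion of 1 of the 3 TET enzymes. The members were chosen by name: every transcript cluster (a probe group of the array) that carries exactly 1 gene symbol, where that symbol is SNORD with a number and is not SNORD64, SNORD107, SNORD108, SNORD109A, SNORD109B or in the SNORD115 or SNORD116 families. This gave 75 snoRNAs, each with 1 cluster, of 18417 genes. A further 40 SNORD genes of the Prader-Willi locus were left out, and 30 SNORD symbols were only on clusters shared with another symbol and were not measured as single genes. The depleted groups were siTET1, siTET2 and siTET3, cells transfected with a pool of small interfering RNAs against TET1, TET2 or TET3, and the control was siNTC, cells transfected with a non-targeting siRNA. Each group had 2 arrays, 8 in all, and every group, siNTC included, went through the same transfections. The TET enzymes oxidise methylated cytosine in DNA, and the arrays asked which transcripts changed when each enzyme was lowered. These depletions were transient and partial knockdowns in 1 cell line, and values here are log2 intensities.

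C/D box snoRNAs are short nuclear RNAs that pair with a target RNA and direct the methyltransferase fibrillarin to a single ribose. Most of their targets lie in ribosomal RNA, and a few snoRNAs guide the spliceosomal RNA U6. A few others, such as the U14 RNA, take part in cutting the ribosomal precursor. In human cells nearly all of them are cut out of introns of a host gene after splicing, so that 1 transcription event can yield a host transcript and several snoRNAs. Many hosts make ribosomal proteins or translation factors, and others are non-coding transcripts such as GAS5 and the SNHG family whose spliced product is not known to encode a protein. The array labels whole transcripts, so that a probe for a snoRNA reads the mature RNA and any intron or precursor that still contains it, and the 2 cannot be told apart here. In bulk RNA, a change in the number of cells that make a transcript cannot be told apart from a change in RNA per cell.

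Of the 75 members, 73 lay within another annotated gene, taken as the host, and these hosts numbered 42. The mature genes were 60 to 205 nucleotides long with a median of 74. Hosts with a pyrimidine-rich start, the terminal oligopyrimidine tract of translation genes, are common in this family, and the starts of some hosts named below are shown for that reason. RefSeq promoter windows (GRCh38.p14) were available for 34 of the 42 hosts. RPS20, SNHG25 and ATP5F1B, hosts of SNORD54, SNORD104 and SNORD59B, had none. WDR43 and EEF1B2, among others, had windows that are not shown. A start with C at the first transcribed base and at least 5 pyrimidines in a row was found on the transcribed strand in 13 of these 34 hosts (38.2%), against 4.07% of all 35116 windows. The units differ: a host counted if any of its windows matched, and some hosts had several windows. Each line below holds 10 bases before the annotated start and 20 from it, with the unbroken run of C and T that opens the transcript in capitals.
RABGGTB (host of SNORD45A, SNORD45B and SNORD45C, chr1:75786246-75786275, plus strand): cctgctctctCCTTTCCCTgttagacatgg
RPL7A (host of SNORD36B, chr9:133348208-133348237, plus strand): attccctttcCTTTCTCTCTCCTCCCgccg
RPS3 (host of SNORD15A and SNORD15B, chr11:75399508-75399537, plus strand): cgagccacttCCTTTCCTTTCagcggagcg
RPL13A (host of SNORD32A, SNORD33, SNORD34 and SNORD35A, chr19:49487598-49487627, plus strand): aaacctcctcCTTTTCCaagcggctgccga
SNHG5 (host of SNORD50A and SNORD50B, chr6:85678714-85678743, minus strand): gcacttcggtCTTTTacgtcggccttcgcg
SNHG19 (host of SNORD60, chr16:2155339-2155368, minus strand): ccgcccctgtCTTTTCggggtcgagtccga
HSPA8 (host of SNORD14C and SNORD14E, chr11:123062117-123062146, minus strand): ggaaaccggtCTCattgaactcgcctgcag
GAS5 (host of 7 members, chr1:173869026-173869055, minus strand): tcatgaattcagatgtgtttattttggagc
The annotated GAS5 and HSPA8 windows did not hold the start as defined. Members of both directions came from hosts that did: 14 of the 21 members in such hosts were called higher and 5 lower in the mean of the depletions against siNTC, at a median log2 difference of 0.42, where 16.5% of all genes were called higher and 24.2% lower. Of the 33 members in the other 21 hosts with a window, 20 were called higher and 4 lower, at a median of 0.23. These other hosts include GAS5, whose 7 members had a median of 0.045, and RPL3, whose opening run of 4 fell short of the minimum. A match describes the annotated window only, so a host without one is not shown to lack such a start. The 2 sets of members were not tested against each other.

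The arrays of the series resembled one another closely. Over genes, replicate arrays correlated at 0.998 to 0.999, arrays of different depletions at 0.995 to 0.998, and a depletion array with an siNTC array at 0.989 to 0.991. Each targeted transcript was lower in its own depletion, with log2 differences from siNTC of -0.68 for TET1, -0.88 for TET2 and -1.08 for TET3. Untargeted TETs moved as well, with TET1 at -0.30 in siTET2 and 0.42 in siTET3 and TET2 at -0.47 in siTET3, all 3 past the test. The embryonic carcinoma genes SOX2, LIN28A, DPPA4 and PODXL had siNTC means of 11.46 to 12.67. In the mean of the depletions PODXL was 0.66 lower (log2 difference -0.66, adjusted p = 2.62e-09), SOX2 differed by -0.13 and DPPA4 by 0.14, both past the test, and LIN28A by 0.08, which did not pass. By contrast, the fibroblast, leukocyte and hepatocyte markers COL1A2, DCN, PTPRC and ALB had siNTC means of 4.24 to 5.11, under the background level of 5.21. That level was set so that 95% of 341 olfactory receptor genes, which these cells should not express, averaged below it. Over all 8 arrays, 66 of the 75 members lay above it and 9 below.

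Most C/D box snoRNAs were higher when a TET was depleted. In the mean of the 3 depletions against siNTC, 44 of the 75 members were called higher, at an adjusted p under 0.05 over all 18417 genes, where 16.5% of all genes were called higher. Another 14 members were called lower, against 24.2% of all genes, and 17 were not called. The median log2 difference of the members was 0.28, beside -0.03 over all genes. Without siNTC replicate 1 the number called lower was 9 instead of 14. Among the 66 members above background, 41 were called higher and 10 lower.

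Higher calls outnumbered lower calls in each single depletion. In siTET1 against siNTC, 33 members were called higher (15.6% of all genes) and 14 lower (18.7% of all genes), at a median of 0.17. For siTET2 against siNTC the counts were 48 higher (14.4% of all genes) and 7 lower (21.8% of all genes), at a median of 0.31. Without siTET2 replicate 1, or without replicate 2, 4 members rather than 7 were called lower. In siTET3 against siNTC, 40 were higher (13.8% of all genes) and 9 lower (22.3% of all genes), at a median of 0.22. These comparisons share the siNTC arrays, and with them part of any agreement. All 3 single depletions called the same 28 members higher and the same 4 lower (SNORD14C, SNORD33, SNORD60 and SNORD75), beside 8.69% of all genes called higher and 13.8% called lower in all 3. Of the members, SNORD41 and SNORD13P3 were called lower in siTET1 and higher in siTET2, and 10 members were called in no single depletion.

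With a change of at least 1.5-fold required as well, 11 members were higher in siTET1 (2.2% of all genes), 20 in siTET2 (2.4%), 11 in siTET3 (1.75%) and 14 in their mean (1.88%) against siNTC. SNORD60 was the 1 member lower at this size in each, where 2.93%, 3.76%, 4.16% and 3.3% of all genes were lower in siTET1, siTET2, siTET3 and their mean. Between depletions few genes of any kind changed that much: 0 members were higher in siTET2 against siTET1, siTET3 against siTET1 and siTET3 against siTET2 (0.282%, 0.076% and 0.076% of all genes), and 0, 0 and 2 were lower (0.0814%, 0.429% and 0.44%).

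**Figure D1:**
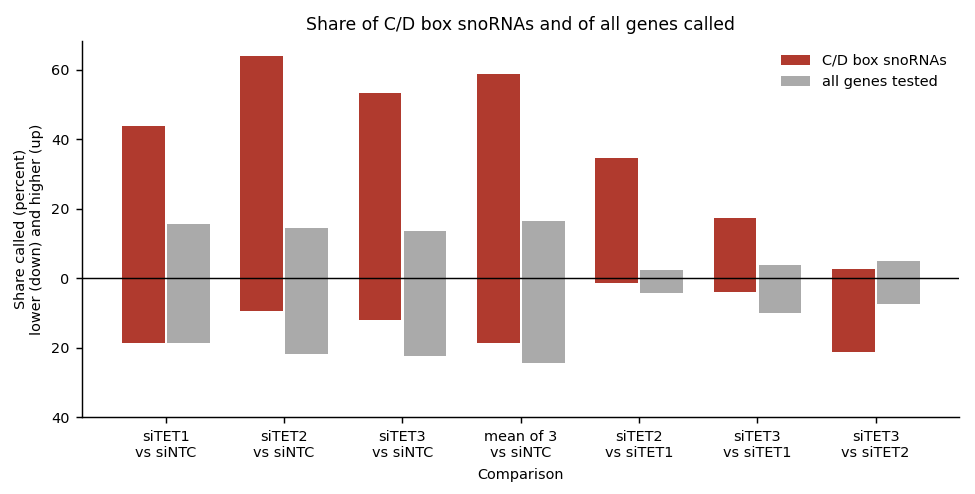
Share of the 75 C/D box snoRNAs (red) and of all 18417 genes tested (grey) called higher (bars upward) or lower (bars downward), in percent (vertical axis), for the 7 comparisons (horizontal axis). In every comparison with siNTC the red upward bar is above the grey one, with 33, 48, 40 and 44 snoRNAs called higher.

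The shift was visible on single arrays. Measured from the siNTC mean, the median member stood 0.16 and 0.21 higher on the siTET1 arrays, 0.32 and 0.30 higher on the siTET2 arrays and 0.22 and 0.20 higher on the siTET3 arrays, against 0.03 and -0.03 on the siNTC arrays. The array medians of the depletions therefore did not overlap with those of siNTC, which were measured from their own mean. Counts of members above the siNTC mean did overlap. They were 45 and 47 in siTET1, 58 and 60 in siTET2 and 51 and 55 in siTET3, against 51 and 24 in siNTC. Over all genes the array medians ran from -0.04 to -0.02 on the depletion arrays. Other snoRNAs outside the Prader-Willi locus moved alongside: 31 of 61 H/ACA box snoRNAs, which guide pseudouridylation, were called higher and 8 lower in the mean of the depletions, at a median of 0.23. Of the 40 SNORD genes of the Prader-Willi locus, 4 were called higher and 25 lower, at a median of -0.30. Both sets of counts stand beside 16.5% of all genes called higher and 24.2% called lower. The part of RNA recovery or labelling of small RNAs in these values was not tested.

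**Figure D2:**
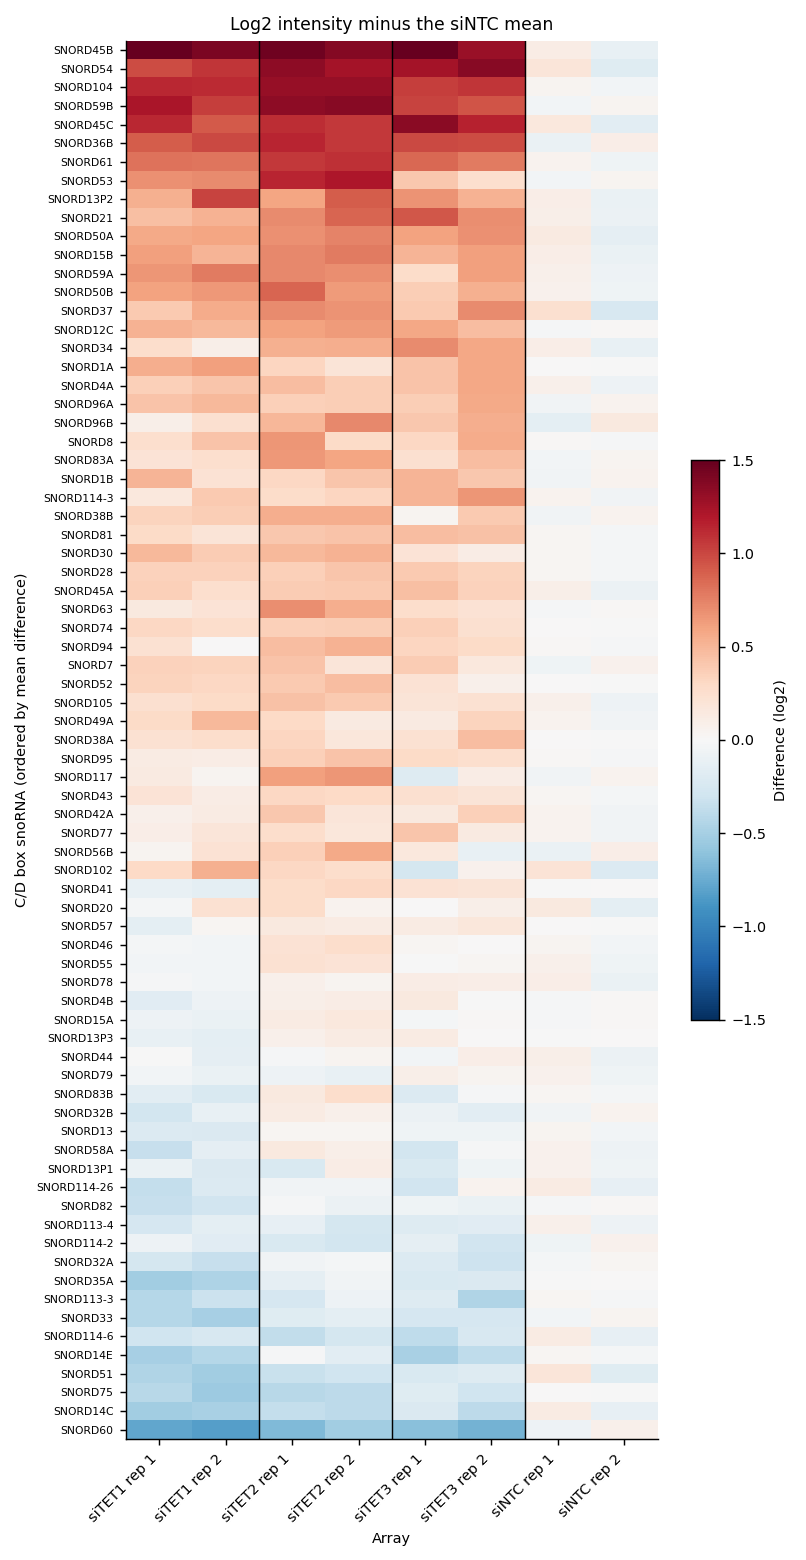
Log2 intensity of each of the 75 C/D box snoRNAs (rows, ordered by their difference in the mean of the depletions against siNTC) minus its siNTC mean on each of the 8 arrays (columns). SNORD45B is at the top with a mean difference of 1.43 and SNORD60 at the bottom with -0.68. The 9 members below background are included.

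SNORD45B, which guides methylation of the small-subunit ribosomal RNA, had the largest difference of all members. It read 12.44 and 12.34 in siTET1, 12.38 and 12.30 in siTET2 and 12.43 and 12.21 in siTET3, against 11.03 and 10.81 in siNTC. Every depletion array was above both siNTC arrays, and the depletions did not separate from one another. The log2 difference was 1.43 ± 0.059 (SE) in the mean of the depletions, a 2.69-fold higher level with a 95% confidence interval of 1.30 to 1.56 on the log2 scale (adjusted p = 1.63e-09), and 1.47, 1.42 and 1.40 in siTET1, siTET2 and siTET3. Its neighbour in the same host, SNORD45C, read 11.90, 11.68, 11.87, 11.82, 12.12 and 11.92 in the siTET1, siTET2 and siTET3 arrays, in that order, against 10.92 and 10.61 in siNTC (1.12 ± 0.075, adjusted p = 9.12e-08). The third, SNORD45A, read 13.88 to 14.09 in the depletions, against 13.72 and 13.55 in siNTC, and differed by 0.36 ± 0.043 (adjusted p = 1.42e-05). This RNA lay near the top of the intensity range of the array. Their host RABGGTB, a subunit of the enzyme that attaches lipids to Rab proteins, was 0.31 higher in the mean of the depletions (adjusted p = 4.03e-06), so that the 3 snoRNAs of 1 host differed by 0.36, 1.12 and 1.43 while the host transcript differed by 0.31. The 25 measured genes nearest to SNORD45B had a median difference of 0.11.

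The next members were in unrelated hosts. SNORD54, from the ribosomal protein gene RPS20, read 8.09 and 8.18 in siTET1, 8.45 and 8.35 in siTET2 and 8.35 and 8.47 in siTET3, against 7.29 and 6.92 in siNTC (1.21 ± 0.083, 2.31-fold, adjusted p = 1.13e-07). All depletion arrays exceeded both control arrays, which themselves stood further apart than the arrays of any depletion. SNORD104, a guide for the large-subunit ribosomal RNA in the non-coding host SNHG25, read 10.89, 10.87, 11.05, 11.06, 10.79 and 10.83 in the siTET1, siTET2 and siTET3 arrays, in that order, against 9.79 and 9.71 in siNTC (1.16 ± 0.033, 2.24-fold, adjusted p = 6.72e-11). Its arrays agreed closely within every group. SNORD59B, from the mitochondrial ATP synthase gene ATP5F1B, read 8.52 and 8.34 in siTET1, 8.65 and 8.67 in siTET2 and 8.32 and 8.25 in siTET3, against 7.26 and 7.34 in siNTC (1.16 ± 0.058, 2.23-fold, adjusted p = 8.68e-09). SNORD36B, from RPL7A, read 9.73 to 9.97 in the depletions, against 8.72 and 8.92 in siNTC (1.01 ± 0.052, adjusted p = 1.03e-08). SNORD36B was the fifth largest increase in siTET3. No depletion array of these RNAs overlapped with the siNTC arrays.

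**Figure D3:**
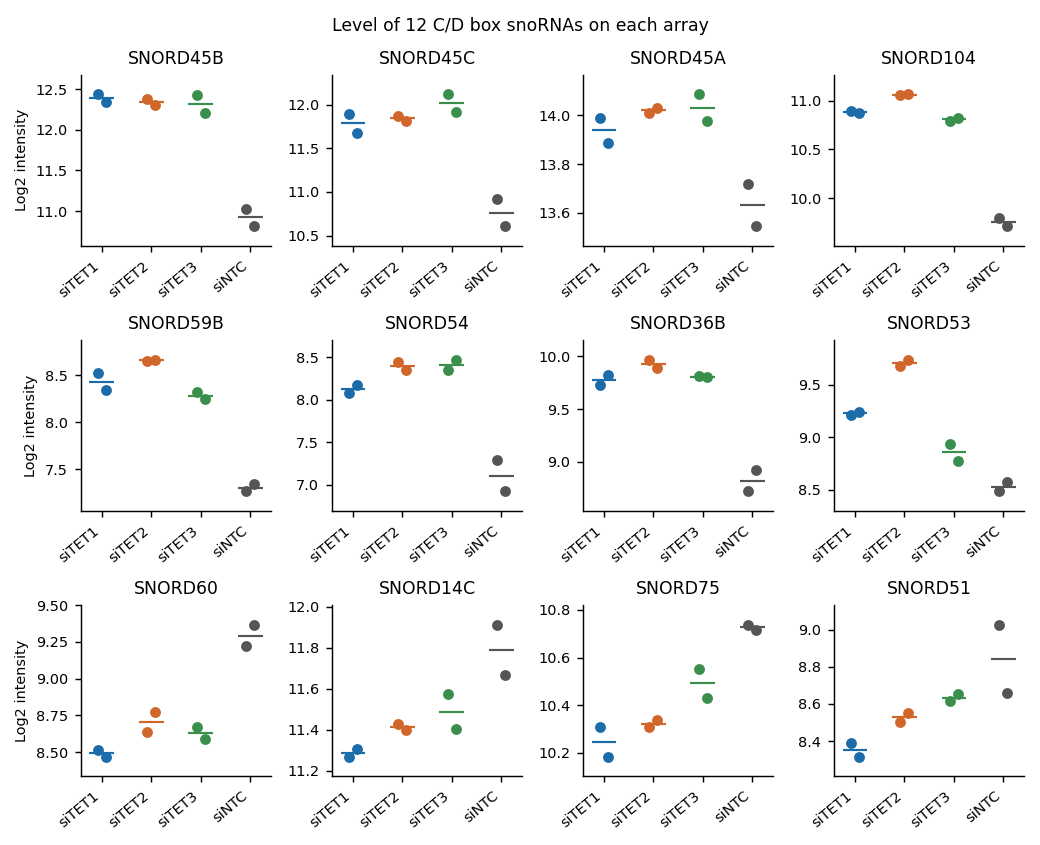
Log2 intensity (vertical axes, each with its own range that does not start at 0) of 12 C/D box snoRNAs on the 2 arrays of each group (points; lines, group means). SNORD45B reads 12.21 to 12.44 in the depletions and 10.81 to 11.03 in siNTC, whereas SNORD60 reads 8.47 to 8.77 in the depletions and 9.22 to 9.37 in siNTC.

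SNORD60, a guide for the large-subunit ribosomal RNA in the non-coding host SNHG19, had the largest decrease. It read 8.52 and 8.47 in siTET1, 8.64 and 8.77 in siTET2 and 8.67 and 8.59 in siTET3, against 9.22 and 9.37 in siNTC, a log2 difference of -0.68 ± 0.055 (adjusted p = 4.44e-07), or 1.61-fold lower. It was called lower in all 3 depletions, at -0.80, -0.59 and -0.66. SNORD75, in GAS5, read 10.31 and 10.19 in siTET1, 10.31 and 10.34 in siTET2 and 10.55 and 10.43 in siTET3, against 10.74 and 10.72 in siNTC (-0.37 ± 0.042, adjusted p = 8.82e-06). The siTET arrays of both RNAs lay wholly below the siNTC arrays. SNORD51, in the translation factor gene EEF1B2, read 8.39 and 8.32 in siTET1, 8.51 and 8.55 in siTET2 and 8.62 and 8.65 in siTET3, against 9.03 and 8.66 in siNTC. The difference of -0.34 ± 0.075 (adjusted p = 0.00267) rested on siNTC replicate 1, and without that array it was -0.15 with an adjusted p of 0.0765. EEF1B2 itself was 0.53 lower, and the 25 measured genes nearest to SNORD51 had a median of -0.36, the lowest such median around any member. SNORD35A, which guides the large-subunit ribosomal RNA, was among the largest decreases in siTET1 (-0.49, adjusted p = 1.33e-06).

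The C/D RNAs listed for processing of the ribosomal precursor did not share the increase. Of the 13 symbols on this list, 3 were measured. All 3 were called lower in the mean of the depletions, where 24.2% of all genes were called lower. SNORD14C, a copy of U14 in the chaperone gene HSPA8, read 11.27 and 11.31 in siTET1, 11.43 and 11.40 in siTET2 and 11.57 and 11.40 in siTET3, against 11.91 and 11.67 in siNTC (-0.39 ± 0.056, adjusted p = 7.55e-05). A second U14 copy in the same host, SNORD14E, read 8.40 and 8.47 in siTET1, 8.88 and 8.73 in siTET2 and 8.41 and 8.52 in siTET3, against 8.92 and 8.86 in siNTC (-0.33 ± 0.054, adjusted p = 0.000271). In siTET2 it differed by -0.09 and was not called, in contrast to -0.46 in siTET1 and -0.43 in siTET3. The U14 copies are similar in sequence, so that probes of 1 may read the other, and HSPA8 was 0.13 lower with a median of -0.25 over the 25 measured genes nearest to its snoRNAs. SNORD13, the U13 RNA, differed by -0.08 ± 0.025 (adjusted p = 0.019), and without siNTC replicate 1 by -0.04 with an adjusted p of 0.335. It read 13.67 to 13.91 in the depletions, against 13.93 and 13.84 in siNTC, so that the groups overlapped.

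Of the 6 guides of the U6 RNA on the list, 3 were measured, and 2 of them lay above background. Both were called higher in the mean of the depletions, where 16.5% of all genes were called higher. SNORD8 in the chromatin remodeller gene CHD8 differed by 0.42 ± 0.11 (adjusted p = 0.00649) and SNORD94 in PTCD3 by 0.30 ± 0.068 (adjusted p = 0.00261). SNORD8 read 6.04 and 6.23 in siTET1, 6.46 and 6.09 in siTET2 and 6.11 and 6.35 in siTET3, against 5.82 and 5.78 in siNTC. Without siNTC replicate 2 its adjusted p was 0.0594, at 0.40. SNORD94 read 7.49 and 7.26 in siTET1, 7.73 and 7.78 in siTET2 and 7.59 and 7.55 in siTET3, against 7.29 and 7.24 in siNTC, so that 1 siTET1 array overlapped with the control. The third, SNORD7 in SNHG30, had a mean below the background level in every group, and no difference is given for it.

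Levels of the snoRNAs were next compared with the kind of gene they lie in. In the mean of the depletions against siNTC, where 16.5% of all genes were called higher and 24.2% lower, 14 of 19 members in non-coding hosts outside the MEG8 cluster were called higher and 2 lower (median 0.32). Of 27 members in coding hosts other than ribosomal protein genes, 18 were called higher and 4 lower (median 0.30), and of 21 in ribosomal protein genes, 11 were higher and 3 lower (median 0.21). The 6 members of the imprinted MEG8 cluster, the SNORD113 and SNORD114 families, all had means below background. In the fit SNORD114-3 passed the test upward and 4 passed it downward, SNORD114-6 among them, but signals below background in both groups hold no level, and no difference is given for them. Of the 2 members without a containing gene, SNORD13 is described above and SNORD32B differed by -0.07 without passing the test.

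Members of 1 host moved apart in some hosts and together in others. The 4 snoRNAs of RPL13A were split: SNORD33 (-0.29 ± 0.029), SNORD35A (-0.27 ± 0.034) and SNORD32A (-0.20 ± 0.037) were called lower in the mean of the depletions, and SNORD34 (0.45 ± 0.062) was called higher. SNORD33, a guide for the small-subunit ribosomal RNA, read 12.47, 12.41, 12.72, 12.76, 12.65 and 12.65 in the siTET1, siTET2 and siTET3 arrays, in that order, against 12.86 and 12.95 in siNTC. SNORD34, a guide for the large-subunit ribosomal RNA, read 9.33, 9.15, 9.59, 9.60, 9.77 and 9.63 in the same order, against 9.17 and 8.96 in siNTC. Thus both siTET2 and both siTET3 arrays were above the siNTC arrays for SNORD34, 1 siTET1 array overlapped with them, and every depletion array was below them for SNORD33. The 25 measured genes nearest to the RPL13A snoRNAs had a median of -0.07.

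GAS5 was the host with most members. Of its 7, SNORD81 (0.37), SNORD74 (0.32) and SNORD77 (0.21) were called higher, SNORD75 (-0.37) was called lower, and SNORD78 (0.04), SNORD44 (-0.01) and SNORD79 (-0.03) were not called. SNORD81 read 11.42 to 11.69 in the depletions, against 11.26 and 11.20 in siNTC. Within RPS3, SNORD15B was 0.62 higher (10.27 to 10.53 in the depletions, against 9.86 and 9.66 in siNTC, adjusted p = 6.28e-07), whereas its paralogue SNORD15A differed by 0.01 (95% confidence interval -0.07 to 0.10). Members of RPL3 ranged from -0.03 to 0.40 and those of RPL23A from 0.02 to 0.44. The members of SNHG5 (SNORD50A at 0.65 and SNORD50B at 0.61), SNHG1 (SNORD28 and SNORD30 at 0.37 each) and SNHG16 (SNORD1A at 0.45 and SNORD1B at 0.39) instead lay close together. Differences between members of 1 host were not tested. Related sequences, such as SNORD59A and SNORD59B or the SNORD45 group, may share probe signal, and the SNORD13 pseudogene copies SNORD13P1, SNORD13P2 and SNORD13P3 cannot be assigned with certainty for the same reason.

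**Figure D4:**
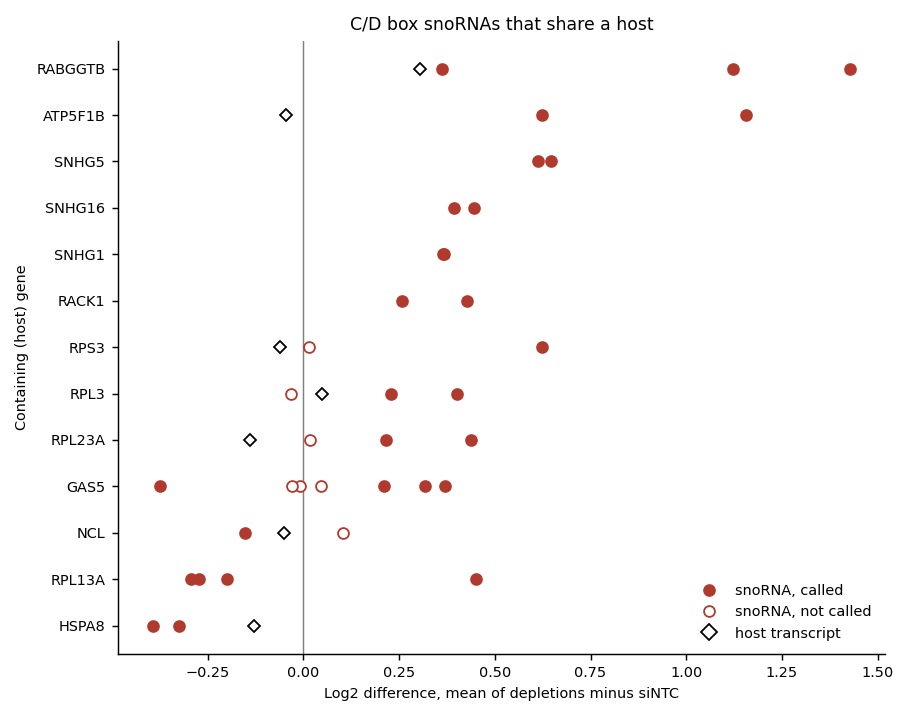
Log2 difference in the mean of the depletions against siNTC (horizontal axis) for C/D box snoRNAs above background that share a host gene (rows) with another measured member, in 13 of 15 such hosts. MEG8, whose members were below background, and 1 further host are not drawn. Filled points passed the test, open points did not, and diamonds are the host transcript where it was measured. Members of RABGGTB run from 0.36 to 1.43 beside a host at 0.31, and those of RPL13A from -0.29 to 0.45.

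Differences of the host transcripts spread less than those of the snoRNAs within them, although not in every pair. For 35 members the host was measured as a single gene, 25 hosts in all, and the host differences in the mean of the depletions had a standard deviation of 0.20 and ran from -0.53 to 0.31, while those of the 35 members had a standard deviation of 0.45. In 27 pairs the member had the larger difference in size and in 8 the host did, among them SNORD51 in EEF1B2. Of the 23 members called higher, 11 had a host called higher, 5 a host called lower and 7 a host not called. Of the 4 called lower, 3 had a host called lower and 1 a host not called. Among the 25 hosts themselves, 10 were called higher and 7 lower, where 16.5% of all genes were called higher and 24.2% lower. As a description over the 35 pairs, of which several share a host and all share the same arrays, the member and host differences had a Pearson r of 0.59 and a Spearman rho of 0.58. SNORD59B differed by 1.16 and SNORD59A by 0.62 in ATP5F1B, which differed by -0.05, with a median of -0.17 over the 25 nearest genes. SNORD4A (0.44) and SNORD42A (0.21) were called higher in RPL23A, which was called lower (-0.14). The difference of each snoRNA from its host was not tested. The median over the 25 nearest measured genes lay between -0.1 and 0.1 for 55 of the 75 members. It was highest, at 0.36, around SNORD13P2, which differed by 0.71 and lies in FOXK1 (0.28).

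The depletions differed from one another in some members, and siTET2 had the highest median difference from siNTC. In siTET2 against siTET1, 26 members were called higher (2.33% of all genes) and 1 lower (4.13% of all genes), at a median of 0.18. In siTET3 against siTET1, 13 were called higher (3.82% of all genes) and 3 lower (9.94% of all genes), at a median of 0.07. In siTET3 against siTET2, 2 were called higher (4.94% of all genes) and 16 lower (7.24% of all genes), at a median of -0.08. Other snoRNAs differed between these depletions as well. Of 61 H/ACA box snoRNAs, 20 were called higher and 0 lower in siTET2 against siTET1. In siTET3 against siTET2, 2 of them were called higher and 23 lower. Of the 40 SNORD genes of the Prader-Willi locus, 10 were higher and 0 lower in the first comparison, and 0 higher and 7 lower in the second. With single arrays left out, the shares of all genes are not given here. Changes in those fits are therefore not read as particular to the members. The counts of the members depended on single arrays. Without siTET2 replicate 1 or 2 they were 8 and 10 higher in siTET2 against siTET1 and 7 and 7 lower in siTET3 against siTET2, and without siTET1 replicate 1 or 2, 13 and 13 were higher in siTET2 against siTET1 and 8 and 7 in siTET3 against siTET1. Without siTET3 replicate 2, 6 members rather than 3 were lower in siTET3 against siTET1.

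SNORD53, a guide for the large-subunit ribosomal RNA in WDR43, separated all 3 depletions. It read 9.21 and 9.24 in siTET1, 9.67 and 9.74 in siTET2 and 8.94 and 8.78 in siTET3, against 8.48 and 8.57 in siNTC, with no overlap between any of the groups. The differences from siNTC were 0.70, 1.18 and 0.33 in siTET1, siTET2 and siTET3, and siTET3 was 0.85 ± 0.061 below siTET2 (log2 difference -0.85, adjusted p = 4.94e-06). WDR43, itself a ribosome assembly factor, was 0.27, 0.24 and 0.19 higher in the same groups. SNORD117, in the RNA helicase gene DDX39B, read 7.46 and 7.36 in siTET1, 7.93 and 7.99 in siTET2 and 7.13 and 7.43 in siTET3, against 7.27 and 7.38 in siNTC. It was called higher in siTET2 alone among the single depletions (0.64, against 0.09 in siTET1 and -0.04 in siTET3), and siTET3 lay below siTET2 (-0.68 ± 0.097, adjusted p = 0.000648).

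Other members were set apart by siTET1 or siTET3. SNORD41, in the nuclear import gene TNPO2, read 12.28 and 12.24 in siTET1, 12.66 and 12.70 in siTET2 and 12.61 and 12.58 in siTET3, against 12.38 and 12.40 in siNTC. The siTET1 arrays were below and the others above the control, and siTET3 exceeded siTET1 by 0.34 ± 0.031 (adjusted p = 2.44e-05). SNORD34 was likewise higher in siTET3 than in siTET1 (0.46 ± 0.076, adjusted p = 0.0015). SNORD30, in SNHG1, read 12.40 and 12.30 in siTET1, 12.40 and 12.44 in siTET2 and 12.13 and 12.03 in siTET3, against 11.95 and 11.88 in siNTC, and was lower in siTET3 than in siTET1 (-0.28 ± 0.044, adjusted p = 0.00119).

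**Figure D5:**
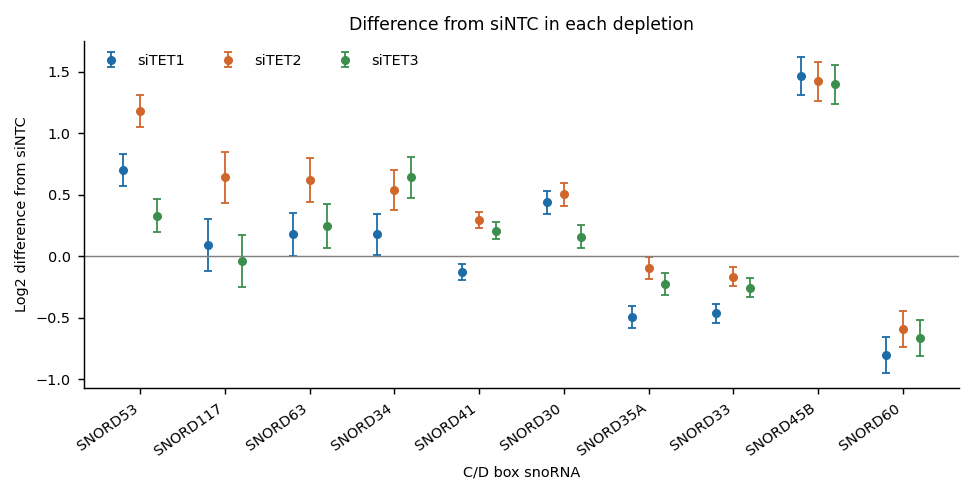
Log2 difference from siNTC (vertical axis; points, fitted values; bars, 95% confidence intervals of the fit) in siTET1, siTET2 and siTET3 for 10 C/D box snoRNAs (horizontal axis). SNORD53 lies at 0.70, 1.18 and 0.33, whereas SNORD45B lies at 1.47, 1.42 and 1.40.

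Genes that make and process C/D box snoRNAs changed in both directions. Of the 4 core proteins, 2 were measured as single genes: FBL, the methyltransferase, was called higher (0.25 ± 0.028, adjusted p = 1.12e-05) and NOP58, a scaffold protein, lower (-0.23 ± 0.029, adjusted p = 2.31e-05) in the mean of the depletions against siNTC. Of 10 measured assembly factors, 3 were called higher and 5 lower (median -0.08). The zinc finger proteins ZNHIT3 (-0.56 ± 0.049) and ZNHIT6 (0.41 ± 0.050) moved apart, the ATPase RUVBL2 was lower (-0.47 ± 0.040) and the co-chaperone RPAP3 was higher (0.29 ± 0.037). Of 9 measured factors of intron release and end trimming, 1 was higher and 5 lower (median -0.15), among them the exosome cofactor C1D (-0.64 ± 0.038), the exonucleases XRN1 (0.58 ± 0.048) and XRN2 (-0.29 ± 0.036) and the cap methyltransferase TGS1 (-0.21 ± 0.037). Over all genes 16.5% were called higher and 24.2% lower in this comparison.

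Of 14 genes of RNA polymerase I and the nucleolus, 2 were called higher (14.3%) and 4 lower (28.6%), near the shares of 16.5% and 24.2% over all genes (median -0.03). The nucleolar chaperone NPM1 rose by 0.31 ± 0.022, while POLR1E, TAF1C and POLR1B fell by 0.29, 0.27 and 0.23. Of 7 measured factors of nonsense-mediated decay, the pathway that degrades many spliced snoRNA host transcripts, 1 was called higher and 3 lower (median -0.12): SMG1 (0.22) was higher, and SMG9 (-0.36), SMG5 (-0.21) and UPF1 (-0.20) were lower. All 4 measured of 21 listed non-coding host genes were called higher, EPB41L4A-AS1 by 0.33, ZFAS1 by 0.26, SNHG17 by 0.23 and SNHG29 by 0.15. ZFAS1 and SNHG29 contain the members SNORD12C (0.55, called higher in all 3 depletions) and SNORD49A (0.28).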

How the data were processed

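The authors deposited log2 intensities of 33297 transcript clusters on Affymetrix Human Gene 1.0 ST arrays, normalized between arrays. Per the labels, each array received cDNA from 250 ng of RNA. The submitters' notes name Partek, with the version, background correction and summarization not given in the sources used.

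The 19460 clusters with 1 symbol were reduced to 18417 genes by the cluster of highest mean. The 75 members and the gene lists were chosen with earlier results of these data known. Hosts were genes of GRCh38.p14 that contain a member, regardless of strand, which the tables used here do not give. The 4 group means were estimated from the 8 arrays in limma 3.58.1 under R 4.3.3 with lmFit and a trended eBayes, and contrasts were tested two-sided, with Benjamini-Hochberg adjustment over all genes and a call at an adjusted p under 0.05. Errors are standard errors of the fit with n = 2 arrays per group. The labels do not say that replicates were separate cultures, so that p-values reflect the spread of these arrays alone, whose number limits the precision. The background level was the 95th percentile over olfactory receptor genes.

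Named members were those in the host of SNORD45B, the 5 largest called changes each way without overlap in each comparison with siNTC (3 between depletions), the listed processing RNAs and U6 guides, members of hosts with at least 3, up to 4 genes of each list, and the brightest and dimmest members. SNORD36B and SNORD15B in the mean comparison, and others outside this rule, were named after their values were seen. The model was first tested on simulated arrays. Alternatives were quantile normalization, the arrays of a comparison only, genes above background only, no intensity trend, the mean of clusters, every cluster, a replicate block, each array left out, and a 1.5-fold minimum. Deviations from the group means of same-numbered arrays correlated at 0.24 between siTET1 and siTET3. In the other pairs of groups they correlated at -0.04 to 0.03. The main fit held no pairing. 1 host with several members is not reported here. Python 3.11.15 and matplotlib 3.10.9 were used for the figures.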

Additional observations from a re-analysis of the deposited data

Results flagged for a closer look

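The named differences between depletions are listed here with the arrays on which each call rests. Those without such a clause passed the test with each array left out in turn: SNORD53 was 0.48 higher in siTET2 than in siTET1, -0.37 in siTET3 against siTET1 and -0.85 in siTET3 against siTET2. SNORD117 differed by -0.68 in siTET3 against siTET2, SNORD34 by 0.46, SNORD41 by 0.34 and SNORD30 by -0.28 in siTET3 against siTET1.

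The calls below were lost without single arrays. In siTET2 against siTET1, SNORD117 (0.55) did not pass without siTET1 replicate 2 (0.50) or siTET2 replicate 1 (0.58) or 2 (0.52), SNORD63 (0.44), a guide in HSPA9, without siTET1 replicate 1 (0.41) or siTET2 replicate 1 (0.37), and SNORD1A (-0.32) without siTET1 replicate 1 (-0.36) or 2 (-0.29) or siTET2 replicate 1 (-0.39) or 2 (-0.26). In siTET3 against siTET1, SNORD21 (0.33), in RPL5, did not pass without siTET1 replicate 1 (0.29) or 2 (0.36) or siTET3 replicate 1 (0.21), and SNORD102 (-0.51), in RPL21, without siTET1 replicate 2 (-0.39) or siTET3 replicate 1 (-0.35). In siTET3 against siTET2, SNORD75 (0.17) lost its call without either siTET2 array, siTET3 replicate 1 or either siNTC array (0.11 to 0.18), SNORD79 (0.16) without either siTET1 array, either siTET2 array or siTET3 replicate 1 (0.14 to 0.18), and SNORD56B (-0.44) without either siTET1 array, either siTET2 array or siTET3 replicate 2 (-0.54 to -0.30). The cause of these differences was not tested.

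Clusters that pair a SNORD symbol with another symbol, which the comparisons do not use, were looked at as well. Of 29 such clusters, several with the same values, the depletion arrays lay wholly above the siNTC arrays in 10 and wholly below in 1, and the 2 that differed by at least 1.5-fold are given. The share of all clusters without such overlap was not counted, so these counts are not read as a result about SNORD genes. The cluster of SNORD24 and RPL7A averaged 10.41 in the depletions and 11.10 in siNTC, a difference of -0.69, and that of SNORD73A and RPS3A averaged 9.65 in the depletions and 8.94 in siNTC, a difference of 0.71. In both, the depletion arrays did not overlap with the siNTC arrays. These differences were not tested, and such a cluster cannot be assigned to 1 gene.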

How the results depend on the processing

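The 7 medians moved by less than the spread between replicates, a median SD of 0.077 over members, under every alternative run. That spread exceeds the median of 0.07 in siTET3 against siTET1. It is close in size to the -0.08 in siTET3 against siTET2, so for these comparisons it is a wide limit. With a minimum of 1.5-fold, the members called higher were 11, 20, 11 and 14 in siTET1, siTET2, siTET3 and their mean against siNTC, with 1 lower in each. The shares of all genes were 2.2%, 2.4%, 1.75% and 1.88% higher and 2.93%, 3.76%, 4.16% and 3.3% lower. Between depletions that minimum left 0 higher in all 3 comparisons (0.282%, 0.076% and 0.076% of all genes), and 0, 0 and 2 lower (0.0814%, 0.429% and 0.44%) in siTET2 against siTET1, siTET3 against siTET1 and siTET3 against siTET2. Without the intensity trend, 4 members were higher and 0 lower in siTET2 against siTET1, 4 higher in siTET3 against siTET1, and 0 higher and 7 lower in siTET3 against siTET2. With genes above background only, 5 were lower in siTET3 against siTET1. In siTET3 against siTET2, 1 member was higher with quantile normalization, with the arrays of the comparison only or with every cluster. With single arrays left out, the counts ran from 8 to 29 higher and 0 to 1 lower in siTET2 against siTET1, 7 to 18 higher and 2 to 6 lower in siTET3 against siTET1, 0 to 2 higher and 7 to 19 lower in siTET3 against siTET2, 4 to 8 lower in siTET2 against siNTC and 9 to 14 lower in the mean against siNTC. With a replicate block the counts against siNTC were 33, 48, 41 and 44 higher and 14, 7, 9 and 14 lower, and between depletions 26, 17 and 3 higher and 1, 3 and 17 lower. The 81 values of named members gave 1205 pairs of a value and an alternative setting. Of these pairs, 1121 kept direction and side of the threshold, 81 lost and 3 gained a call, and 0 changed sign past the test. Not every setting could move a difference. Each member had 1 cluster, so averaging clusters left its difference unchanged, as did leaving out an array that a comparison does not use. Apart from the 1.5-fold minimum, the shares of all genes under the alternatives are not given here. Changed counts are therefore not read as particular to the members. Calls depend on 2 arrays per group, and members near background have little room for a decrease. The cause of these changes was not tested.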
